A study of Mus musculus with 8 samples.

Results

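The cells described here are tumor macrophages rich in complement C1q that also carried RNA of *Folr2*, the gene of folate receptor beta. They were chosen by measured values among single CD45+ cells of mouse mammary tumors, with a gate on unique molecular identifiers (UMIs, each counted as 1 captured RNA molecule). A cell had to hold at least 2 UMIs of *Folr2* and at least 10 of *C1qa*, at most 1 of *Cd3d*, *Cd3e* and *Cd3g* together and at most 1 of *Ctsk*. It also had to show 500 to 6000 detected genes, under 10% mitochondrial UMIs and at least 2000 UMIs in all. Of 11430 cells, 9731 (85.1%) met the conditions on quality, and 229 of these (2.35%) were Folr2+ C1q-high macrophages. They were 11.2% of the 2050 C1q-high macrophages, which are the cells of the same gate whatever their *Folr2*.

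Tumors were grown from E0771, a line of C57BL/6 mouse mammary carcinoma, or from E0771-Res1 or E0771-Res2, lines that the study derived from E0771 tumors that came back once combined paclitaxel and anti-PD-1 had been stopped. Mice that carry the same resistant line are repeats of that line, not of the derivation of a line. Female C57BL/6 mice received the cells in the inguinal mammary fat pad, and CD45+ cells were collected on day 18, with 2 mice of E0771, 3 of E0771-Res1 and 3 of E0771-Res2 used here. The age of the mice was not given in the sources used here, the labels name no treatment of these mice, and another E0771 mouse was not analysed here. Gene UMIs summed to between 5036667 and 18894504 per mouse. The 8 mice shared 0 cell barcodes.

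Macrophages with folate receptor beta are known from many tissues, mammary gland included, where they lie near vessels and are counted among the tissue-resident cells. C1q, made by macrophages from the genes *C1qa*, *C1qb* and *C1qc*, starts the classical complement pathway and tags dying cells for uptake. MHC class II molecules, in turn, present peptides to CD4+ T cells, and macrophages can carry many or few of them.

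The E0771 mice gave 14 and 8 Folr2+ C1q-high macrophages (replicates 1 and 3). The E0771-Res1 mice gave 88, 21 and 7, and the E0771-Res2 mice 34, 26 and 31 (replicates 1 to 3 in each). E0771-Res1 replicate 1 therefore supplied more of these cells than any other mouse, while E0771 replicate 3 and E0771-Res1 replicate 3 supplied the fewest. Their RNA summed to between 72320 UMIs, in E0771-Res1 replicate 3, and 1427066 UMIs, in E0771-Res1 replicate 1. The median cell held 13844 UMIs and 3266 genes, against 8916.5 UMIs and 2567.5 genes in C1q-high macrophages with no *Folr2* UMI. Of the 229 cells, 48 were among the 5% of kept cells with the most UMIs in their mouse, and 34 held 1 UMI of a Cd3 gene. Doublets were not removed, and the part of such cells in the results was not tested beyond the fits without them given below.

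The gate itself was read on *Folr2* (GRCm38 chr7:101839988-101857194, minus strand) and *C1qa* (chr4:136895917-136898803, minus strand), both protein-coding. The median Folr2+ C1q-high macrophage held 3 UMIs of *Folr2*, the highest 17, and 87 cells (38.0%) held exactly 2. *C1qa* stood at a median of 83 UMIs and reached 222. Near the thresholds, 207 cells missed the gate by 1 *Folr2* UMI, 37 by *C1qa* alone, 34 by *Ctsk* alone and 22 by the Cd3 genes alone. Only 2 of the 229 cells had 10 to 12 *C1qa* UMIs, and 7 cells with 7 to 9 lay just below. A *Folr2* UMI was also found in 2.02% of T cells and 3.15% of *Ly6c2*-rich monocytes, where it should be absent or rare. The T cells were chosen to hold no UMI of *Cd68*, *Csf1r* or *Adgre1*, so the background read from them may be too low. It was found in 15.5% of macrophages gated on *Ctsk* and *Gpnmb*.

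*Ccl8*, a chemokine for monocytes and other leukocytes, and *Pf4*, the platelet factor 4 chemokine, belong to the label of these cells, so their levels are given as a description. As CPM, the share scaled to 1e+06 of the summed UMIs of all genes except mitochondrial, Rpl, Rps and predicted Gm genes, *Ccl8* stood at 1055 and 1041 in Folr2+ C1q-high macrophages of the E0771 mice. It stood at 2015, 729 and 2916 in the E0771-Res1 mice and at 455, 1087 and 1244 with E0771-Res2. In C1q-high macrophages without *Folr2* the 8 mice ran from 43.8 to 268 CPM, so the ranges of the 2 classes did not overlap. *Pf4* stood at 2077 and 247 CPM in E0771, 2826, 2556 and 893 in E0771-Res1, and, for E0771-Res2, 1633, 2761 and 2484. The *Folr2*-free cells held 181 to 762 CPM of *Pf4*, and E0771 replicate 3, with 8 cells, fell inside that range. Folr2+ cells thus lay above the range of *Folr2*-free cells in 8 of 8 mice for *Ccl8* and in 7 of 8 mice for *Pf4*. The label was chosen with these same data known, so this does not test it.

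Within the cells, however, the label was uneven. After each cell was thinned to 2000 UMIs, 37.6% of Folr2+ C1q-high macrophages held a *Ccl8* UMI, against 9.91% of *Folr2*-free C1q-high macrophages and 3.03% of T cells, which should lack it. Without thinning, the shares were 57.2%, 24.3% and 13.1%. For *Pf4* the thinned shares were 68.6%, 26.1% and 4.55%, and the unthinned ones 87.8%, 50.7% and 10.6%. A single thinned cell reached 55 *Ccl8* UMIs while 143 of the 229 (62.4%) held none. Both promoters are printed from RefSeq (GRCm38.p6, 250 bases before to 50 after the start of transcription), because these 2 genes name the cells. *Ccl8* lies at chr11:82115185-82116799 and *Pf4* at chr5:90772435-90773383, both on the plus strand and both protein-coding. Capitals mark GAGGAA, a form of the site of the macrophage factor PU.1, which was searched on both strands, was found on the opposite strand in each and occurs in 28.3% of 32851 mouse promoters of this length. It lies 240 bases before the start in *Ccl8* (chr11:82114935-82115234, plus strand) and 8 bases before it in *Pf4* (chr5:90772185-90772484, plus strand).
Ccl8: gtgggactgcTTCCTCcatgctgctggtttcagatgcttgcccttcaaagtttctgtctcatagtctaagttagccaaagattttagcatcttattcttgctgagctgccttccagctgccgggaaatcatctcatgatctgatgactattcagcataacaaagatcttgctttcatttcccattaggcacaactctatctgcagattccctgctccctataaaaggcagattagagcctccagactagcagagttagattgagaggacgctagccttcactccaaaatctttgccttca
Pf4: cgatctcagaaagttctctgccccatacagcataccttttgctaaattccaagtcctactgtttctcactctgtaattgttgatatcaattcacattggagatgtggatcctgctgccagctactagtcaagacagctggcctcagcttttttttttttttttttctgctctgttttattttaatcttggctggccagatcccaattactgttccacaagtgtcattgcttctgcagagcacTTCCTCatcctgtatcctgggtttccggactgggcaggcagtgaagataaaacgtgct

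Markers of macrophages were high and those of other cells low beside them. The gate favored this in advance, since it asks for *C1qa* and few Cd3 UMIs and the macrophage list holds *C1qb* and *C1qc*. The 9 macrophage markers (*Apoe* most abundant) summed to 22399 to 33834 CPM in Folr2+ C1q-high macrophages and to 15660 to 21727 CPM in *Folr2*-free ones. Some genes that mark long-lived resident macrophages elsewhere were nearly absent, while others (*Mrc1*, *Stab1* and more, given with the tests) were not: *Lyve1*, a hyaluronan receptor, had 9 UMIs in all 229 cells, and *Cd163*, the hemoglobin scavenger receptor, had 12. *Timd4*, a receptor for phosphatidylserine, and *Vsig4*, a complement receptor, had 0, which allows a share of up to 1.31% of the cells with a UMI. The 9 T cell markers summed to 26.4 to 132 CPM (*Cd4* most abundant, 61 UMIs) and the 7 NK cell markers to 26.4 to 338 (*Gzma*, 126 UMIs), the latter highest in E0771-Res2 replicate 1. The 8 dendritic cell markers ran from 6.63 to 539 CPM, highest in E0771-Res1 replicate 3, with *Cd209a* most abundant at 70 UMIs and *Zbtb46* and *Clec9a* at 0. B cell markers reached 236 CPM, neutrophil markers 151 and tumor or stroma markers 68.5, with *Ly6g* and *Col1a1* at 0. In *Folr2*-free C1q-high cells T cell markers ran from 59.1 to 123 CPM and NK cell markers from 129 to 529. Dendritic cell markers ran from 14.6 to 129 CPM there and B cell markers from 75.7 to 111, so Folr2+ cells of single mice lay above them. Neutrophil and tumor or stroma markers reached 115 and 86.7 CPM in the *Folr2*-free cells. Monocyte markers are described beside the tumors below.

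Folr2+ C1q-high macrophages made up 1.33% and 1.45% of kept CD45+ cells in the 2 E0771 mice. For E0771-Res1 the shares were 4.63%, 3.76% and 0.814%, and E0771-Res2 gave 2.01%, 1.89% and 1.78%. The group mean was 1.39% ± 0.0820 (SD, n = 2) for E0771, 3.07% ± 2.00 (SD, n = 3) for E0771-Res1 and 1.89% ± 0.114 (SD, n = 3) for E0771-Res2. E0771-Res1 thus held both the highest shares and the lowest. Of C1q-high macrophages, they were 6.97% and 8.08% in E0771. E0771-Res1 gave 16.3%, 21.4% and 4.05%, and E0771-Res2 gave 8.88%, 11.5% and 9.42%. The 6 resistant tumors lay 1.09 percentage points above E0771 for the first share and 4.40 above for the second, differences that did not pass (exact permutation, two-sided, with 28 ways to split the mice, p = 0.357 for each, where 0.0714 is the smallest p possible). E0771-Res1 against E0771 gave p = 0.6 for both shares and E0771-Res2 against E0771 gave p = 0.2 for both, in exact tests that cannot go below 0.2. E0771-Res2 against E0771-Res1 differed by -1.17 points of kept cells (p = 0.4) and -3.98 points of C1q-high macrophages (p = 0.6), in exact tests that cannot go below 0.1. All 8 tests had an adjusted p of 0.6. With the gate applied to cells thinned to 2000 UMIs, the difference of E0771-Res2 from E0771-Res1 turned to 0.0784 and 0.158 points. On thinned cells the gate asked for at least 1 *Folr2* and 3 *C1qa* UMIs, so its thresholds changed along with depth. Single E0771-Res1 mice also moved it. Of kept cells it was -0.392 points without replicate 1 and -2.30 without replicate 3. Of C1q-high macrophages it was -0.221 points without replicate 2 and -8.91 without replicate 3. The resistant tumors lay 0.659 points of kept cells above E0771 without E0771-Res1 replicate 1 and 2.18 points above with the gate at 1 *Folr2* UMI. Of C1q-high macrophages they lay 2.5 points above without E0771-Res1 replicate 2, 1.96 with the gate on thinned cells and 9.04 with the gate at 1 *Folr2* UMI.

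**Figure D1:**
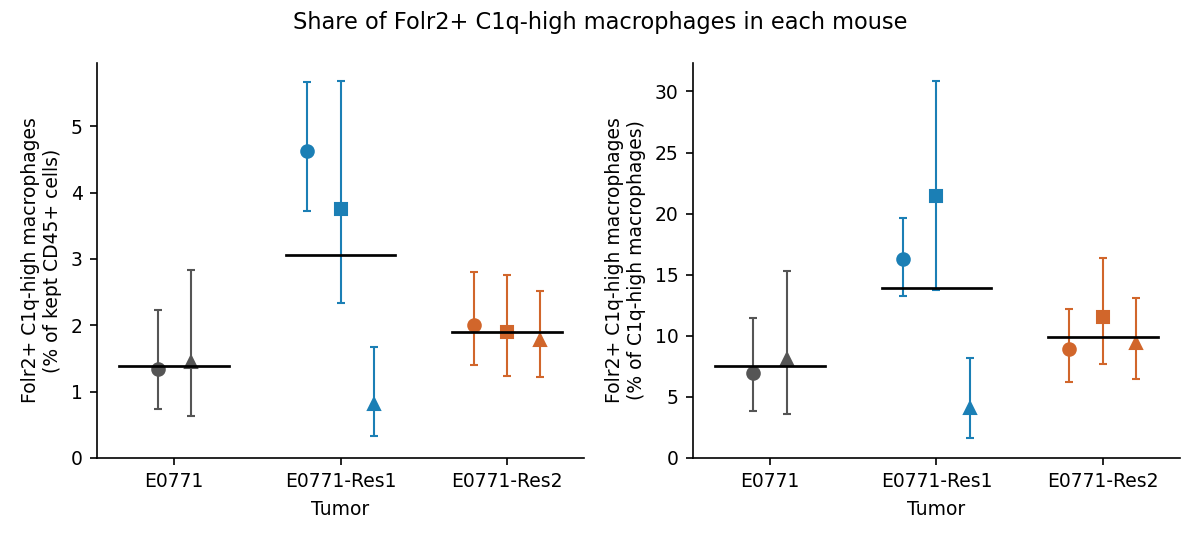
Share of Folr2+ C1q-high macrophages in each mouse (y axis, left in % of kept CD45+ cells, right in % of C1q-high macrophages) by tumor (x axis). Circles, squares and triangles are replicates 1, 2 and 3, error bars are exact (Clopper-Pearson) 95% intervals that cover counting error only, and black lines are group means; the 3 E0771-Res1 mice span 0.814% to 4.63% of kept cells.

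Grouping C1q-high macrophages by their number of *Folr2* UMIs, with all mice pooled, showed levels of several genes that moved with *Folr2* on both sides of the gate. *Apoe*, which carries cholesterol out of macrophages, stood at 6602 CPM with 0 *Folr2* UMIs, 9003 with 1, 13062 with 2, 16356 with 3 to 4 and 18583 with 5 or more. *Trem2*, a lipid receptor of macrophages, went from 257 through 364, 481 and 657 to 846 CPM over the same classes. *Gas6*, the bridge from dying cells to Mer and Axl receptors, went from 15.1 through 27.2, 68.4 and 98.2 to 174 CPM. *H2-Ab1*, a beta chain of MHC class II, went the other way, from 4336 through 2221, 1918 and 1582 to 958 CPM. *Ly6c2*, a surface marker of inflammatory monocytes, went down in the same order from 1225 through 845, 704 and 389 to 252 CPM. Cells with a single *Folr2* UMI, just outside the gate, lay between the gated cells and the *Folr2*-free ones for these 5 genes. Other genes followed no single direction: *Gpnmb* stood at 194, 197, 156, 98.2 and 158 CPM over the classes, and *Pf4*, *Ccl7* and *Ccl12* were not in the order of the *Folr2* count throughout. These classes hold different shares of each mouse, and the median depth of a cell went from 8916.5 to 16480.0 UMIs along them, so no test was made.

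**Figure D2:**
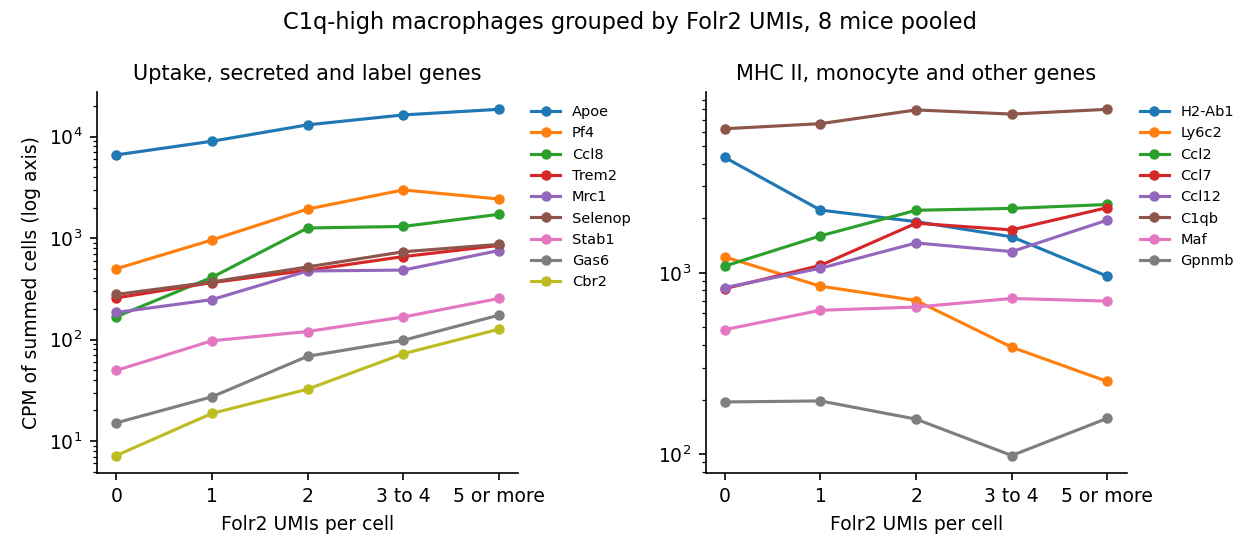
Levels of selected genes (y axis, CPM of summed cells, log axis) in C1q-high macrophages by *Folr2* UMIs per cell (x axis), the 8 mice pooled and no error shown. *Apoe* runs from 6602 to 18583 CPM and *H2-Ab1* from 4336 down to 958 CPM.

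Which genes went with *Folr2* among C1q-high macrophages of the same mouse was tested on counts summed per mouse and class. In Folr2+ cells 9 of 11 tested genes of resident macrophages, 12 of 25 of lysosomes and 6 of 13 of uptake rose, while 7 of 7 MHC class II genes, 9 of 14 monocyte genes and 8 of 18 inflammatory genes fell. Lists can share genes, and *Gas6*, *Stab1* and *Mrc1* count among both the 9 resident and the 6 uptake genes. Of 7042 genes tested with edgeR's quasi-likelihood test, with the mouse as a block and Benjamini-Hochberg adjustment, 575 (8.17%) passed an adjusted p of 0.05, 298 higher (4.23%) and 277 lower (3.93%). The fit used the 6 mice with at least 10 cells of each class, E0771 replicate 1 being the only one of its group. A fit of all 8 mice, chosen after seeing the data, called 587 of 6446 genes (9.11%), 484 of them shared with the 575. Without E0771-Res1 replicate 1, 345 genes passed, and without the cells among the top 5% of UMIs in their mouse, 343. The lists below were each counted against these backgrounds, the median log2 fold change of all tested genes being 0.01.

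Among genes often tied to resident macrophages, 9 of 11 tested (of 19 listed) rose, 1 fell and 1 did not pass, with a median log2 fold change of 1.29. The 8 listed genes too low to be tested include *Lyve1*, *Cd163* and *Timd4*. *Fcrls*, an Fc receptor-like scavenger gene known from microglia, stood at 239 and 41.1 CPM in Folr2+ cells of E0771, at 493, 438 and 320.3 in E0771-Res1 and at 206, 185 and 113 in E0771-Res2. The *Folr2*-free cells held 4.03 to 81.5 CPM, so that only E0771 replicate 3 lay inside their range. The log2 fold change was 2.98 ± 0.20 (SE; adjusted p = 7.13e-10, edgeR; higher in 6 of 6 mice). *Cbr2*, a carbonyl reductase, gave the largest change of the list, 3.09 ± 0.28 (adjusted p = 7.47e-08, edgeR), with 9.98 to 147 CPM in Folr2+ cells and 2.33 to 38.9 CPM in the others. *Stab1*, a scavenger receptor for modified lipoproteins and dying cells, rose by 1.73 ± 0.14, *Mrc1*, the mannose receptor, by 1.60 ± 0.12 and *Selenop*, the secreted selenium carrier, by 1.22 ± 0.09. *Igf1*, a growth factor, rose by 1.14 ± 0.16. *Maf*, a factor of macrophage identity, rose by 0.34 ± 0.09 (adjusted p = 0.0202), a small change that passed in 7 of 15 alternative settings.

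*Gas6* led the list of uptake receptors and bridges, of which 6 of 13 tested (of 22) rose, 1 fell and 6 did not pass. It stood at 79.6 and 95.9 CPM in Folr2+ cells of E0771, at 122, 106 and 152 in E0771-Res1 and at 138, 114 and 96.4 in E0771-Res2. The *Folr2*-free cells held 7.23 to 22.1 CPM, and the classes did not overlap (log2 fold change 2.83 ± 0.17, adjusted p = 1.69e-10, edgeR). *Cd36*, *Msr1* and *Lrp1*, receptors for lipids, modified proteins and apolipoproteins, rose by 1.26 ± 0.25, 0.39 ± 0.09 and 0.35 ± 0.10. Of the kinase receptors for Gas6, *Axl* fell by 0.50 (adjusted p = 0.0296, edgeR) while *Mertk* changed by 0.47 ± 0.17 and did not pass (adjusted p = 0.101).

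Lysosomal genes leaned one way: 12 of 25 rose, 0 fell and 13 did not pass. *Ctsl*, the protease cathepsin L, rose by 1.37 ± 0.11 (adjusted p = 5.1e-09, edgeR), from 422 to 558 CPM in *Folr2*-free cells to 489 to 1808 CPM in Folr2+ cells, of which the 7 cells of E0771-Res1 replicate 3 were the lowest. *Ctsd* and *Ctsb*, further cathepsins, rose by 0.71 ± 0.08 and 0.55 ± 0.06. Among lipid-associated macrophage genes 5 of 18 tested (of 19) rose, 0 fell and 13 did not pass. *Apoe* rose by 1.29 ± 0.07 (adjusted p = 4.43e-11, edgeR), with 9645 to 18241 CPM in Folr2+ cells against 4562 to 8229 CPM and no overlap. *Trem2* rose by 1.47 ± 0.09 (adjusted p = 3.01e-10), *Abca1*, a cholesterol exporter, by 1.32 ± 0.16 and *Fabp5*, a fatty acid carrier, by 0.69 ± 0.10. *Gpnmb*, the usual marker of the lipid-associated state, changed by -0.36 ± 0.21 and did not pass (adjusted p = 0.363). *Apoe* RNA was found in 74.7% of T cells as well, which should lack it, and in 46.0% after thinning, against 95.2% of Folr2+ cells. Cells of several mice were pooled before capture, the number of pools is not given in the sources used here, and the part of free RNA shared between mice of a pool was not tested.

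The complement list gave 7 genes up, 2 down and 2 not passing of 11 tested (of 14). *C1qb* and *C1qc*, which share a gene cluster and a product with the gate gene *C1qa*, were 0.31 ± 0.06 and 0.44 ± 0.06 higher, with 6425 to 8125 CPM of *C1qb* in Folr2+ cells and 5306 to 6929.5 CPM in the others. *C4b*, a later component of the classical pathway, rose by 1.61 ± 0.34 and *Cfp*, properdin, by 0.53 ± 0.09, while *C3*, the central component, fell by 0.80 (adjusted p = 0.00504, edgeR). Of 15 tested chemokines (of 22), 6 rose, 3 fell and 6 did not pass. Besides the label genes these were *Ccl2*, *Ccl7* and *Ccl12*, ligands that draw Ccr2+ monocytes, with log2 fold changes of 0.97 ± 0.18, 1.21 ± 0.15 and 0.96 ± 0.18, and *Ccl9* with 0.46 ± 0.11. *Ccl8* and *Pf4*, counted among the 6, gave 2.82 ± 0.17 and 2.34 ± 0.15, which as label genes are a description only. *Ccl4*, *Ccl5* and *Cxcl9*, which draw lymphocytes, fell by 0.44, 0.88 and 1.01. *Il10*, an anti-inflammatory cytokine, rose by 0.75 (adjusted p = 0.016, edgeR), with 38.3 to 169 CPM in Folr2+ cells and 18.4 to 70.8 CPM in the others, and did not pass with the mouse left out of the model, without E0771-Res1 replicate 1, without E0771-Res1 replicate 2 or without E0771-Res2 replicate 1 (highest adjusted p over all alternatives 0.272).

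**Figure D3:**
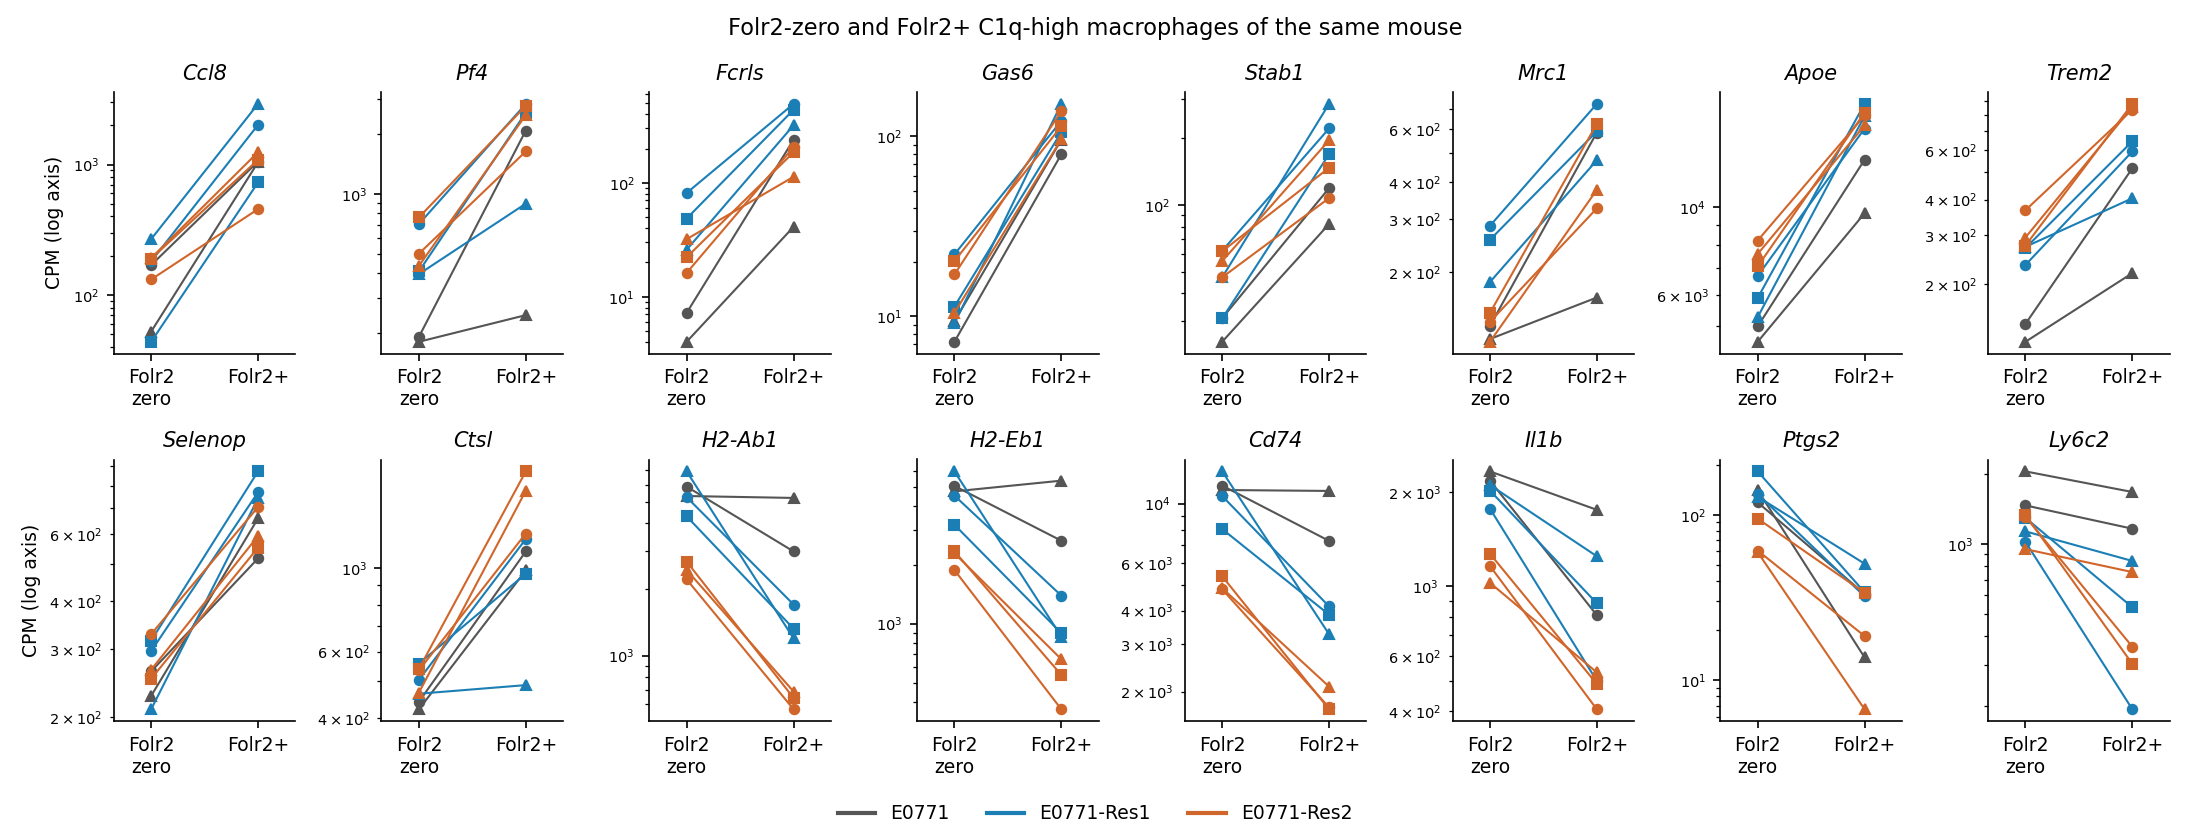
Levels of 16 genes (y axis, CPM, log axis, scaled per gene) in Folr2-zero and Folr2+ C1q-high macrophages (x axis), with a line for each of the 8 mice (circles, squares and triangles are replicates 1, 2 and 3; color is the tumor). *Gas6* rises from 7.23 to 22.1 CPM to 79.6 to 152 CPM without overlap, and *H2-Ab1* lines fall in every mouse, least in E0771 replicate 3.

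Of the MHC class II genes, 7 of 7 tested (of 10) fell, with a median log2 fold change of -1.22. *H2-Ab1* (chr17:34257689-34269419, plus strand) stood at 2979 and 5219.6 CPM in Folr2+ cells of E0771, at 1707, 1325 and 1197 in E0771-Res1 and at 569, 641 and 685 in E0771-Res2. In *Folr2*-free cells of the same mice it stood at 5877 and 5326, at 5262, 4302 and 6895, and at 2221, 2676 and 2452 CPM. The level was lower in Folr2+ cells of each mouse, by least in E0771 replicate 3, while the ranges of the classes overlapped across tumors (log2 fold change -1.67 ± 0.10, adjusted p = 1.69e-10, edgeR). *H2-Eb1*, another beta chain, *H2-Aa*, the alpha chain, and *Cd74*, the invariant chain that guides them, fell by 1.75, 1.49 and 1.22, and *H2-DMb1*, which helps load the peptide, by 1.21. *Ciita*, the coactivator that switches the group on, fell by 1.09 (adjusted p = 0.0132), and did not pass in 3 of 13 alternatives. An *H2-Ab1* UMI was also found in 65.2% of T cells, which should lack it (27.8% after thinning, against 54.1% of Folr2+ and 77.0% of *Folr2*-free cells).

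Because these genes moved together, the promoters of *H2-Aa* (gene at chr17:34282744-34287823, minus strand) and *H2-Eb1* (gene at chr17:34305867-34316674, plus strand) are shown from RefSeq (GRCm38.p6). Capitals mark CTGATTGG, the Y box of the conserved MHC class II promoter module, which includes an inverted CCAAT box. It was searched on both strands and occurs in 4.10% of the 32851 promoters of this length. It lies 51 bases before the start in *H2-Aa* (chr17:34287774-34288073) and 62 bases before it in *H2-Eb1* (chr17:34305617-34305916), each on the strand of its gene.
H2-Aa: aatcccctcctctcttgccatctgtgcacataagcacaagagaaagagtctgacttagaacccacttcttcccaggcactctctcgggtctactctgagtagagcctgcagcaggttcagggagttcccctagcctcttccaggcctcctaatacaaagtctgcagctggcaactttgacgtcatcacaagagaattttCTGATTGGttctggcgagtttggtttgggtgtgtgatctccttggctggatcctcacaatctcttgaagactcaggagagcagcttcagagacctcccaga
H2-Eb1: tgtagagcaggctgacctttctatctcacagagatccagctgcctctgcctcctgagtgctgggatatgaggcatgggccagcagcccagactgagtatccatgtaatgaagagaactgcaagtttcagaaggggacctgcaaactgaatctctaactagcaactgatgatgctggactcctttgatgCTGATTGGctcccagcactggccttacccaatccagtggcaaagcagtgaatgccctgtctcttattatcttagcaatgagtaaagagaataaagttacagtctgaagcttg

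Of 18 NF-kB and cytokine genes tested (of 20), 8 fell, 1 rose and 9 did not pass. *Il1b*, the cytokine interleukin 1 beta, stood at 406 to 1754 CPM in Folr2+ cells and 1027 to 2325 CPM in the others, and was lower in each mouse (log2 fold change -1.38 ± 0.10, adjusted p = 1.11e-09, edgeR). *Ptgs2*, the inducible cyclooxygenase of prostaglandin synthesis, stood at 6.65 to 50.6 CPM against 59.4 to 183 CPM, without overlap (-2.05 ± 0.17, adjusted p = 1.26e-08). Of 14 monocyte genes, 9 fell, 1 rose and 4 did not pass. *Ly6c2* fell by 1.36 and *Plac8*, another monocyte gene, by 1.38, while *Ccr2*, the receptor of Ccl2, fell by 0.67. *Ly6i*, a relative of *Ly6c2*, gave the lowest fold change of the genes singled out, -2.68 ± 0.28, with 42 UMIs in all Folr2+ cells and 0 in 2 mice.

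With the mouse left out of the model, *Igf1*, *Ccl12*, *Cd36*, *Cxcl9*, *Ccr2* and *Ciita* did not pass (adjusted p = 0.129, 0.0747, 0.0587, 0.057, 0.159 and 0.188), nor did *Ccl2* with DESeq2 (adjusted p = 0.0513). *Cxcl9* passed in 12 of 15 alternatives, with a highest adjusted p of 0.131 in the fit of all 8 mice. Over the 15 the log2 fold change ran from 0.58 to 1.15 for *Ccl2*, 0.51 to 1.07 for *Ccl12* and -1.39 to -0.62 for *Cxcl9*.

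The remaining lists are given by their counts. Of 26 transcription factors tested (of 28), 8 fell, 1 rose and 17 did not pass, with *Klf4*, *Cebpb* and *Runx3* lower by 0.68, 0.67 and 0.75. Of 13 checkpoint and T cell ligand genes (of 15), 4 fell and 9 did not pass, with *Cd274* (PD-L1) at 64.2 to 126 CPM against 131 to 229 CPM (fell by 0.83 on the log2 scale, adjusted p = 2.59e-05, edgeR). Of 21 interferon response genes tested (of 22), 4 fell, 1 rose and 16 did not pass, among them *Isg15*, which fell by 0.59. Of 16 genes of dissociation and heat shock, 7 fell and 9 did not pass, *Hspa1b* by 1.14. On sums of thinned cells *Cd274* and *Hspa1b* did not pass (adjusted p = 0.774 and 0.105), nor did *Hspa1b* with the mouse left out of the model (0.146). The log2 fold change ran from -1.11 to -0.19 for *Cd274* and from -1.49 to -0.78 for *Hspa1b* over 15 alternatives. Of 16 cell cycle genes (of 20), 1 fell and 15 did not pass, of 15 hypoxia and glycolysis genes (of 20) 1 rose and 14 did not pass, and of 11 iron and heme genes (of 13) 2 rose and 9 did not pass. Of 11 eicosanoid and resolvin genes (of 20), 1 rose, 2 fell and 8 did not pass. Of 13 growth factors and cytokines (of 19) 3 rose, 1 fell and 9 did not pass, and of 5 Fc gamma receptor genes 1 rose and 4 did not pass.

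Folr2+ C1q-high macrophages were next set beside 542 macrophages gated on at least 2 UMIs each of *Ctsk* and *Gpnmb*, a cathepsin and a glycoprotein of lipid-associated and bone-type macrophages. In Folr2+ cells the scavenger receptor genes *Stab1* and *Mrc1* and the chemokines *Ccl2*, *Ccl7* and *Ccl12* were higher, while 7 of 17 lipid-associated, 8 of 15 hypoxia and 10 of 18 inflammatory genes fell. Of 4296 genes tested in the same 6 mice, 805 (18.7%) passed, 376 higher (8.75%) and 429 lower (9.99%) in Folr2+ C1q-high cells. All 8 mice together gave 735 of 3713 genes (19.8%). Since the gates differ in *C1qa*, nothing is read from the other C1q genes here.

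*Fcrls* led the genes that were higher in the Folr2+ cells, with a log2 fold change of 4.91 ± 0.23 (adjusted p = 6.81e-10, edgeR), with 26 UMIs in all *Ctsk*+ *Gpnmb*+ cells together. *Gas6* was higher by 3.79 ± 0.28, *Stab1* by 2.72 ± 0.23 and *Mrc1* by 1.70 ± 0.14. *Cd81*, a tetraspanin, rose by 3.49 ± 0.22, *Ch25h*, which makes 25-hydroxycholesterol, by 3.53, and *Cx3cr1*, the fractalkine receptor, by 2.83. *Cx3cr1* was uneven between mice, from 39.8 CPM in E0771 replicate 1 to 641 CPM in E0771-Res1 replicate 3. *Apoe* was higher by 1.92 ± 0.10 and *Trem2* by 0.61 (adjusted p = 0.00106), and of chemokines *Ccl2*, *Ccl7* and *Ccl12* were higher by 1.03 ± 0.25, 1.74 ± 0.16 and 2.05 ± 0.11, *Ccl2* in 4 of 6 mice and the others in 6 of 6. *Ccl8* and *Pf4*, as label genes, gave 3.08 and 2.09.

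Of 17 lipid-associated genes tested (of 19), 7 fell, 3 rose and 7 did not pass. *Fabp5* stood at 995 to 5787 CPM against 3421 to 8181 CPM (log2 fold change -1.15, adjusted p = 2.34e-06, edgeR), so that Folr2+ cells lay above *Folr2*-free C1q-high cells and below *Ctsk*+ *Gpnmb*+ cells. *Igf1* was placed the same way, 1.22 lower than in *Ctsk*+ *Gpnmb*+ cells (log2 fold change -1.22, adjusted p = 1.30e-04). *Fabp4*, *Cd9* and *Lgals3*, a fatty acid carrier, a tetraspanin and galectin 3, fell by 2.37, 1.23 and 1.00. Of 15 hypoxia and glycolysis genes (of 20), 8 fell and 7 did not pass, *Vegfa*, the vessel growth factor, by 1.60 and *Slc2a1*, a glucose transporter, by 1.11. *Slc2a1* did not pass with at least 3 *Folr2* UMIs required (log2 fold change -0.78, adjusted p = 0.0593), and *Vegfa* was tested in 6 alternatives, where it passed. Of 18 NF-kB and cytokine genes (of 20), 10 fell, 1 rose and 7 did not pass, with *Ptgs2* lower by 2.67. *Inhba*, the activin A subunit, had the lowest log2 fold change of the genes named, -6.34 (adjusted p = 2.48e-09), with 6 UMIs in all Folr2+ cells against 500 in *Ctsk*+ *Gpnmb*+ cells. For MHC class II, 0 of 6 tested genes (of 10) passed in either direction, and *H2-Ab1* changed by -0.50 ± 0.27 (adjusted p = 0.224).

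The tumors were then compared within Folr2+ C1q-high macrophages, in one fit over 3 groups. It held the 6 mice with at least 10 such cells, so E0771 was represented by replicate 1 alone (14 cells), which was assumed to vary like the mice of the other groups. Of 7 MHC class II genes tested (of 10), 4 were lower in resistant than in E0771 tumors and 4 in E0771-Res2 than in E0771, while 0 passed for E0771-Res1 against E0771. *Mmp12* was higher in E0771-Res2 than in either other tumor, and *Gpnmb* passed against E0771-Res1 but not against E0771 in this fit (log2 fold change 3.66, adjusted p = 0.154, edgeR). Of 5358 genes tested, 4 (0.0747%) differed between resistant and E0771 tumors, and all 4 were lower MHC class II genes. For *H2-Ab1*, *H2-Eb1*, *H2-Aa* and *Cd74* the log2 fold changes were -1.60 ± 0.18, -1.76 ± 0.25, -1.57 ± 0.24 and -1.41 ± 0.16 (adjusted p = 0.0012, 0.0125, 0.021 and 0.0012, edgeR). Among all genes, 46.9% did not overlap between 1 mouse and 5.

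With the other 2 mice added (E0771 replicate 3 with 8 cells and E0771-Res1 replicate 3 with 7), a fit chosen after seeing the data called 8 of 4765 genes (0.168%). The 4 MHC class II genes were again among them, *H2-Ab1* with a log2 fold change of -2.05 and *Cd74* with -1.75. In the CPM of all 8 mice, the E0771 values of *H2-Ab1* (2979 and 5219.6) lay above the 3 of E0771-Res1 (1197 to 1707), which lay above the 3 of E0771-Res2 (569 to 685). The order of the 3 tumors was the same for *H2-Aa*, *H2-Eb1* and *Cd74*, and the tumors did not overlap for any of the 4. Among all genes 12.1% did not overlap between resistant and E0771 tumors in these 8 mice, 23.3% between E0771-Res1 and E0771, 29.7% between E0771-Res2 and E0771 and 13.7% between E0771-Res2 and E0771-Res1. *Folr2*-free C1q-high macrophages of E0771-Res2 also held less *H2-Ab1* (2221 to 2676 CPM) than those of E0771 (5326 and 5877), while those of E0771-Res1 (4302 to 6895) overlapped with E0771.

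The resistant-against-E0771 calls depended on which cells were used. Without cells among the top 5% of UMIs in their mouse, *Cd74* still passed, while *H2-Ab1* and *H2-Eb1* (adjusted p = 0.122 for both) and *H2-Aa* (0.271) did not. Without cells holding any Cd3 UMI, 0 genes passed with edgeR, 324 having an unadjusted p under 0.05, and the 4 genes had adjusted p from 0.0508 to 0.154. *H2-Aa* also missed the threshold without E0771-Res1 replicate 1, and *H2-Aa* and *H2-Eb1* without E0771-Res1 replicate 2. The direction was kept in 14 of 14 alternatives, with log2 fold changes from -2.05 to -1.01 for *H2-Ab1*, -2.35 to -1.15 for *H2-Eb1*, -1.98 to -1.04 for *H2-Aa* and -1.75 to -1.12 for *Cd74*. Monocyte markers moved with the tumors too: their sum was 2242 and 3178 CPM in Folr2+ cells of E0771, 655, 1321 and 1703 in E0771-Res1 and, for E0771-Res2, 569, 679 and 1390, with *Ly6c2* most abundant, and their part in the result was not tested.

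**Figure D4:**
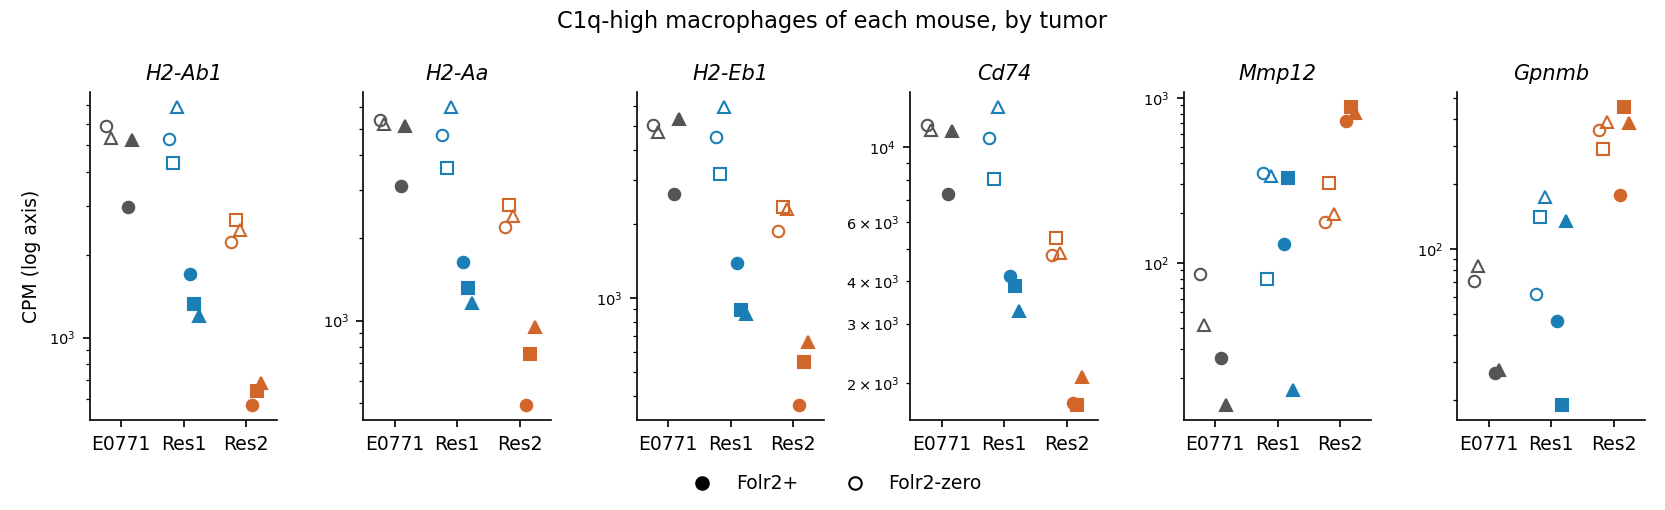
Levels of MHC class II genes, *Mmp12* and *Gpnmb* (y axis, CPM, log axis) in Folr2+ (filled) and Folr2-zero (open) C1q-high macrophages of each mouse by tumor (x axis; circles, squares and triangles are replicates 1, 2 and 3). Filled *H2-Ab1* points step down from 2979 and 5219.6 CPM in E0771 to 569 to 685 CPM in E0771-Res2, and filled *Mmp12* points of E0771-Res2 lie at 719.7 to 881 CPM.

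E0771-Res1 taken alone against E0771 gave 0 calls of 5358 with edgeR, 351 genes having an unadjusted p under 0.05, and 1 call with DESeq2. In the fit of all 8 mice 5 genes passed (0.105%), the 4 MHC class II genes (0.0839% of genes lower), with *H2-Ab1* at -1.47 and *Cd74* at -1.25, and *Lyz2*, lysozyme, which was higher by 1.13. *Lyz2* stood at 4883 and 3987 CPM in Folr2+ cells of E0771 and at 10846, 10929 and 6811 in those of E0771-Res1.

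E0771-Res2 against E0771 gave 7 calls of 5358 (0.131%), 6 lower (0.112%) and 1 higher (0.0187%). *H2-Eb1*, *H2-Ab1*, *H2-Aa* and *Cd74* were lower by log2 fold changes of -2.31, -2.21, -2.06 and -1.95 (adjusted p = 0.00145, 5.47e-05, 0.00238 and 5.47e-05, edgeR), and passed in 14 of 14 alternatives. *Mmp12*, macrophage elastase, was higher by 4.93 (adjusted p = 0.00286) and passed in the same 14, in which the log2 fold change ran from 3.31 to 8.32. The E0771 value in this fit, 26.5 CPM in replicate 1, was 4 UMIs. Of the 14 alternatives only the fit of all 8 mice held another E0771 mouse, so the others do not test how these results depend on replicate 1. The gene stood at 26.5 and 13.7 CPM in E0771, at 130.1, 325 and 16.9 in E0771-Res1 and at 719.7, 881 and 811 in E0771-Res2, whose 3 mice lay above the other 5. *Vcam1*, an adhesion molecule, and *Ccl12* fell by 1.98 and 1.87 (adjusted p = 0.0162 and 0.00874), and neither passed in the fit of all 8 mice, where E0771 replicate 3 held 68.5 CPM of *Vcam1* against 425 in replicate 1. *Ccl12* also missed the threshold without E0771-Res2 replicate 3, and *Vcam1* with the gate on thinned cells and on sums of thinned cells (highest adjusted p = 0.389). The 8-mouse fit called 12 genes (0.252%), among them *Gpnmb*, *Lpl*, a lipase of lipid-loaded macrophages, and *Igf1*, higher by 3.66, 2.73 and 2.32. None of these was called in the 6-mouse fit, where *Lpl* changed by 2.68 and *Igf1* by 1.89. Over 14 alternatives *Lpl* ran from 1.99 to 3.33 and *Igf1* from 0.73 to 2.39.

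E0771-Res2 against E0771-Res1, which rests on 3 and 2 mice, gave 12 calls (0.224%), 4 higher (0.0747%) and 8 lower (0.149%). *Gpnmb* was higher by 3.11 and *Mmp12* by 2.00 (adjusted p = 0.00498 and 0.0067, edgeR), with *Gpnmb* at 46.4, 18.9 and 135 CPM for E0771-Res1 and 178, 455 and 382 for E0771-Res2. In *Folr2*-free cells *Gpnmb* stood at 61.7, 141 and 174 CPM for E0771-Res1 and 357, 289 and 387 for E0771-Res2, whereas *Mmp12* overlapped, with 349, 79.4 and 337 against 176, 306 and 198 CPM. The *Ctsk*+ *Gpnmb*+ macrophages, gated on *Gpnmb* and with 240.0 to 1949 CPM of *Mmp12* across the 8 mice, numbered 32, 16 and 10 for E0771-Res1 and 209, 88 and 161 for E0771-Res2, and their part in the result was not tested. *Slamf7*, a receptor of the SLAM family, and *Stap1*, an adaptor, were higher by 1.07 and 1.02. *Fcrls*, which was higher in Folr2+ than in *Folr2*-free cells in 6 of 6 mice tested, was lower in E0771-Res2 by a log2 fold change of -1.45, and *H2-Ab1*, *Cd74* and *Lyz2* by -1.24, -1.08 and -0.84. The other lower genes were *Pmepa1* (-1.88), *Clec4n* (-1.80), *Tmem176b* (-1.75) and *Marcksl1* (-1.31). *Stap1* passed in 8 of 16 alternatives, *Slamf7* in 10 of 16 and *Pmepa1*, which had no adjusted p from DESeq2, in 9 of 15 (highest adjusted p = 0.474, 0.553 and 0.330). *Tmem176b* and *Marcksl1*, also without an adjusted p from DESeq2, passed in 10 of 15 each (highest adjusted p = 0.597 and 0.385), and without E0771-Res1 replicate 1 *Tmem176b* changed by -0.87. The other 7 genes passed in 11 to 15 of 16. Over these alternatives the log2 fold change of *Mmp12* ran from 1.19 to 2.64 and that of *Fcrls* from -2.37 to -1.22. Of the 12 calls, DESeq2 shared 8 and the fit without the top 5% UMI cells 4. The calls also leaned on single mice: without E0771-Res1 replicate 1, which leaves replicate 2 alone in its group, 3 genes passed and none was among the 12, and without E0771-Res2 replicate 3, 3 passed.

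Whether the step from *Folr2*-free to Folr2+ cells itself differed between resistant and E0771 tumors was tested as an interaction, again with 1 E0771 mouse. Of 8906 genes, 3 passed (0.0337%), the chemokines *Ccl12*, *Ccl7* and *Ccl2* with differences of -1.84, -1.54 and -1.59 in log2 fold change (adjusted p = 3.16e-04, 0.00109 and 0.0435, edgeR). The 3 genes lie in one cluster with *Ccl8*, *Ccl2* at chr11:82035571-82037453, *Ccl7* at chr11:82045712-82047525 and *Ccl12* at chr11:82101845-82103400, all on the plus strand. In E0771 replicate 1, *Ccl2* stood at 4730.2 CPM in Folr2+ and 934 in *Folr2*-free cells. In E0771 replicate 3 the values were 2041 and 894 CPM. In the resistant mice they were 2817 and 1511, 1253 and 1083, 1247 and 1069, 947 and 804, 2858 and 1083, and 1320.3 and 858 CPM. Folr2+ cells were above the *Folr2*-free ones in each of the 8 mice, most in E0771 replicate 1. With all 8 mice none of the 3 passed (adjusted p = 0.342 for *Ccl2*, 0.192 for *Ccl7* and 0.164 for *Ccl12*). *Ccl2* passed in 4 of 11 alternatives, *Ccl7* in 9 and *Ccl12* in 10. The fit of all 8 mice instead called 5 of 7920 genes (0.0631%), namely *H2-Eb1*, *H2-Ab1*, *H2-Aa* and *Cd74*, with -1.61, -1.35, -1.27 and -1.04, and *Wfdc17* with 1.08. In the 6-mouse fit these MHC class II genes had adjusted p from 0.287 to 0.87, so that both sets of calls depended on whether the 2 mice with few cells (E0771 replicate 3 and E0771-Res1 replicate 3) were included.

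**Figure D5:**
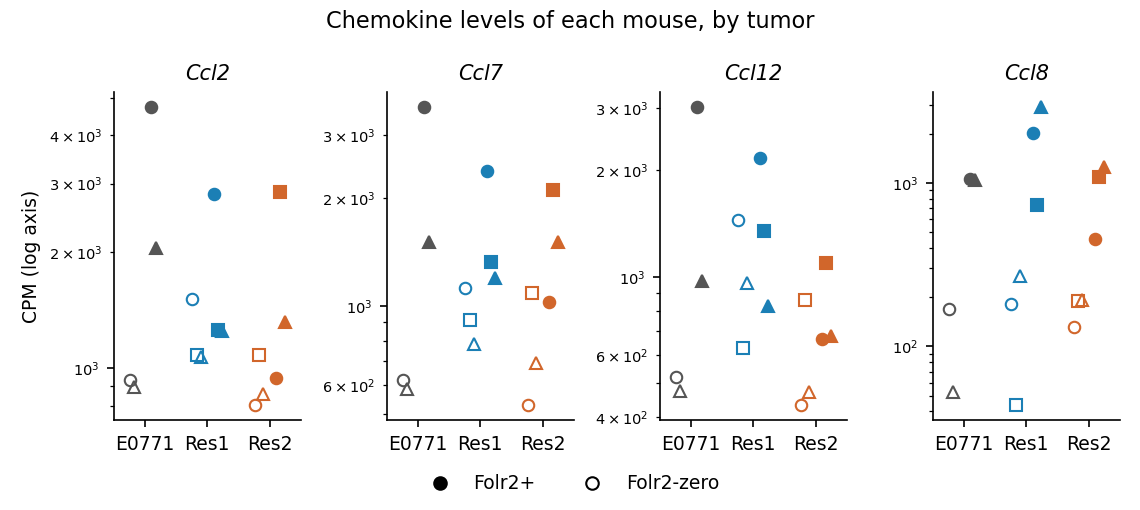
Levels of *Ccl2*, *Ccl7*, *Ccl12* and *Ccl8* (y axis, CPM, log axis) in Folr2+ (filled) and Folr2-zero (open) C1q-high macrophages of each mouse by tumor (x axis; circles, squares and triangles are replicates 1, 2 and 3). The filled circle of E0771 is highest for *Ccl2* (4730.2 CPM), and *Ccl8* separates the 2 classes in all 8 mice.

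Cells of the resistant tumors also varied among themselves. Ranked by the lowest ratio of variance to mean over the 5 mice with at least 20 such cells (2 of E0771-Res1, 3 of E0771-Res2 and 0 of E0771), each cell thinned to 2000 UMIs, the first of 496 genes was *Apoe*, with a mean ratio of 26.0. *Cxcl2*, a neutrophil chemokine, had rank 3 (18.9), *Cd74* rank 8 (8.75), *Pf4* rank 9 (7.68), *Ccl12* rank 10 (4.80) and *Ccl8* rank 11 (11.4). The ratio tends to grow with the level of a gene, and *Apoe* had a mean of 27.5 UMIs per thinned cell against 1.87 for *Ccl8*. With the excess of the ratio over 1 divided by the mean, *Apoe* stood lowest of these 6 genes, at 0.908. By that measure *Ccl8* stood at 5.59, *Cxcl2* at 4.31, *Ccl12* at 1.93, *Cd74* at 1.79 and *Pf4* at 1.74. MHC class II varied over a wide range. The 10 listed genes together had a median of 5 UMIs per thinned Folr2+ cell (quartiles 2 and 13, highest 142), with 20 cells (8.73%) at none. *Folr2*-free C1q-high cells had a median of 18 (quartiles 4 and 50). By mouse the median was 25.5 and 26.0 for E0771, 4, 6 and 7 for E0771-Res1 and 4, 2.5 and 6 for E0771-Res2, so that the typical Folr2+ cell of each resistant mouse held fewer MHC class II UMIs than that of either E0771 mouse. Cells of 1 mouse share their source, and these medians are a description.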

How the data were processed

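Per the labels and the study's methods, cells of each mouse were tagged with multiplexing oligonucleotides and sequenced with the 10x Genomics 3′ chemistry. The authors counted UMIs with Cell Ranger 6.1.2 (per the file headers) against mm10 (per the submitters' processing notes) and deposited unnormalized UMI counts as 1 matrix per mouse with 32285 genes and 9 tag features. Tag features stayed out of all totals.

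Counts were used as deposited. Mitochondrial, Rpl, Rps and predicted Gm genes (8626, with 20.3% of UMIs) were left out of tests and of the totals behind CPM, and the gate genes out of tests. Comparison classes were C1q-high cells with 0 *Folr2* UMIs (1614 cells), *Ctsk*+ *Gpnmb*+ cells (542, at least 1 *C1qa* UMI), *Ly6c2*-rich monocytes (3808, at least 3 *Ly6c2* and at most 2 *C1qa* UMIs) and T cells (198, at least 3 Cd3 UMIs and none of *Cd68*, *Csf1r* or *Adgre1*). Sums of counts over each class in a mouse, where it had 10 cells or more, went into edgeR 4.0.16 (TMM, filterByExpr, quasi-likelihood test, adjusted p under 0.05) in R 4.3.3, a step tested on simulated data, with the mouse as a block between classes. DESeq2 1.42.0 was an alternative. SE is the log2 fold change divided by the square root of F. Levels are CPM without length scaling, so they are compared within a gene only. Permutation tests used Python 3.11.15.

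Single genes are named from the gene lists, or among the 10 largest changes in each direction whose average log2 CPM reached 5 and which had the same sign in each mouse (or no overlap between groups of tumors). Genes called only in the fit of all 8 mice, and genes of the tumor comparisons outside that rule, were chosen after their values were seen. The gate, the lists and the genes were chosen with earlier results of these data known. Mice are numbered within groups, and same-numbered mice shared only a number (correlations of deviations -0.0527 to 0.0461). Between mice of a group, chi-square per degree of freedom was 1.91 to 2.46 against counting noise alone. Cells of a mouse also vary among themselves, so this does not show that the mice differed. P-values measure the spread between these mice. Doublets were not called, and fits without the top 5% of cells by UMIs in each mouse stand in for it. Intervals and limits cover counting error only. Promoters are from RefSeq and gene positions from GENCODE M21 (GRCm38). Single values of a few list genes are not reported here.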

Additional observations from a re-analysis of the deposited data

Results flagged for a closer look

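The difference between Folr2+ and Folr2-zero C1q-high macrophages differed between resistant and E0771 tumors for *Ccl12* (-1.84 in log2 fold change), *Ccl2* (-1.59) and *Ccl7* (-1.54) by the interaction test of edgeR in 6 mice, and for none of the 3 in the fit of all 8 mice. The 2 shares of Folr2+ C1q-high macrophages in the 6 resistant mice, and the per-mouse log2 differences of 20 named genes against Folr2-zero cells and of 20 against *Ctsk*+ *Gpnmb*+ macrophages, were examined for a mouse standing apart. Of these 42 sets of values 2, both from the comparison with *Ctsk*+ *Gpnmb*+ macrophages, passed Dixon's 95% value, and about 1 in 20 would by chance. For *Nxpe5*, E0771-Res1 replicate 1 stood at 4.24 and the other 5 mice at 1.83 to 2.46 (gap over range 0.742). For *Thbs1*, thrombospondin 1, E0771-Res1 replicate 2 stood at -5.07 and the others at -2.92 to -1.95 (gap over range 0.688).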

How the results depend on the processing

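Depth and cell number limit these results: 14 and 8 Folr2+ C1q-high macrophages stand for E0771, and the gate on raw UMIs admits deep cells more readily. Of 1737 values of single genes under alternatives, 1564 kept their direction and their side of the threshold, 104 lost the call, 69 gained one and 0 reversed. With the gate on cells thinned to 2000 UMIs, the share of E0771-Res2 minus E0771-Res1 reversed to 0.0784 points of kept cells and 0.158 of C1q-high macrophages. That gate also had lower thresholds (at least 1 *Folr2* and 3 *C1qa* UMIs), and the parts of depth and threshold were not told apart.

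Against Folr2-zero cells (575 genes), DESeq2 called 335, the fit without the top 5% UMI cells 343, sums of thinned cells 155 (2056 genes tested) and leaving out 1 mouse 345 to 535. Without a filter on low counts 273 of 787 called genes were higher. Against *Ctsk*+ *Gpnmb*+ cells (805 genes), DESeq2 called 481 and sums of thinned cells 224 (828 tested). For resistant against E0771 (4 genes), no filter called 36, the gate on thinned cells 14, sums of thinned cells 19, all 8 mice 8, no Cd3 UMI 0 and leaving out 1 mouse 3 to 11. For E0771-Res1 against E0771 (0 genes), the same settings called 33, 10, 7, 5, 0 and 0 to 1, and DESeq2 and the fit without the top 5% UMI cells 1 each. For E0771-Res2 against E0771 (7 genes), they called 46, 20, 20, 12, 13 and 7 to 16, the fit without the top 5% UMI cells 13 and cells of 5000 to 20000 UMIs 11. For E0771-Res2 against E0771-Res1 (12 genes), they called 112, 69, 23, 24, 33 and 3 to 51, the fit without the top 5% UMI cells 6 and cells of 5000 to 20000 UMIs 45. For the interaction (3 genes), no filter called 25, all 8 mice 5, no Cd3 UMI 5 and leaving out 1 mouse 2 to 5. Fewer genes were tested in the thinned settings, and the cause of the shifts was not tested.

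A replicate block in the comparisons of tumors called 37, 23, 46 and 62 genes (resistant, E0771-Res1 and E0771-Res2 against E0771, and E0771-Res2 against E0771-Res1), although same-numbered mice did not deviate together. Leaving the mouse out of the class comparisons changed neither count by over 1.5 times (391 and 892). The fits without E0771 replicate 1 and with at least 3 *Folr2* UMIs gave no value for comparisons with E0771, since no E0771 mouse then had 10 cells. The settings of all 8 mice and of no Cd3 UMI were added after seeing the data.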
